A study of Mus musculus with 8 samples.

Results

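Immediate early response genes are those that a cell transcribes first after a stimulus, before it has made any new protein. Here they were represented by 11 probe sets for 10 mouse genes, out of 45101 probe sets in the deposited value table. A probe set is a group of short probes on the array that together report 1 transcript. The members were taken by probe set ID from a named list and by no cut on their measured values. That list was chosen with earlier results of these data known. The gene of each member is the one the list gives. They comprised Fos (1423100_at), Jun (1417409_at and 1448694_at), Junb (1415899_at), Egr1 (1417065_at), Ier2 (1416442_at), Dusp1 (1448830_at), Atf3 (1449363_at), Nr4a1 (1416505_at), Btg2 (1416250_at) and Zfp36 (1452519_a_at).

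The study measured whole-blood RNA of mice on 1-colour Affymetrix arrays, with 4 arrays from mice given cobalt chloride (CoCl2) and 4 from controls. Cobalt ions block the prolyl hydroxylases that mark hypoxia-inducible factors for destruction, so CoCl2 serves as a chemical stand-in for low oxygen. Treated mice received 200 ng CoCl2 per 100 ml daily, and blood was taken from the vena cava after 15 days, per the labels. The treatment text, which stands with the CoCl2 samples, keeps both groups in room air, while the control samples carry no treatment text and are titled as chamber controls. Neither strain, sex nor age is given for the mice of any group. Whether each array stands for a separate animal is not stated, so the tests measure variation among arrays that may be technical. Blood is a mixture of cell types, and in such bulk RNA fewer cells of a type and less RNA per cell cannot be told apart. Levels of blood cell markers were not analysed here, because the files pair no probe sets with genes.

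Immediate early transcription is switched on by kinase cascades that activate factors already sitting at the promoters. The ternary complex factors and serum response factor bind the CArG box, and CREB binds the cAMP response element. Growth factors, cytokines, adhesion and many forms of stress trigger it in leukocytes. The first products are transcription factors such as Fos, Jun and Egr1. Others end the response, since Dusp1 removes phosphate from the kinases and Zfp36 (tristetraprolin) directs AU-rich messenger RNAs to decay.

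After CoCl2, 2 of the 9 tested members (22.2%) passed the test as higher, against 28.6% of all tested probe sets. Zfp36 rose by 1.16 on the log2 scale, a 2.24-fold change, and Nr4a1, an orphan nuclear receptor, rose by 0.69, with control values near the low end of the scale. The other members did not pass the test, among them Fos with a log2 difference of 1.34 and Atf3 with 0.89. What set the members apart from each other was the spread inside the CoCl2 group: Fos, Junb, Atf3, Dusp1 and others were high on replicates 3 and 4 and lay near the control values, or below them, on replicates 1 and 2.

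Of the 11 probe sets, 9 had a mean of at least 2.90 over all arrays, the level that the upper 50% of probe sets reached, and were tested with limma over 22519 probe sets. At a Benjamini-Hochberg adjusted p under 0.05, 2 of 9 members (22.2%) passed, and both were higher with CoCl2. Over all tested probe sets 45.1% passed, 28.6% as higher and 16.5% as lower. The members' share was thus below that of the whole array for either direction together and near it for rises. No member passed as lower in limma, and the number at an unadjusted p under 0.05 was 0 as well. After each array was centred on its median, 5085 probe sets were higher and 4712 lower, against 6442 and 3720 on the deposited scale. The median log2 difference was 0.46 over the 9 tested members and 0.19 over all tested probe sets. Junb and the Jun probe set 1417409_at fell under the filter and were read from a fit without it.

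The upstream sequences of 4 members are shown because Zfp36 and Nr4a1 passed the test, while Fos and Dusp1 varied most between the CoCl2 arrays. Each is the 150 bases before the transcription start of the RefSeq gene in GRCm38.p6, on the gene's own strand, 5′ to 3′. Zfp36 lies at chr7:28379229-28379378 (minus strand), Nr4a1 at chr15:101266696-101266845 (plus strand), Fos at chr12:85473740-85473889 (plus strand) and Dusp1 at chr17:26508473-26508622 (minus strand). Capitals mark a CArG box, the letters GCGNGGGCG that Egr1 is known to bind, and the cAMP response element TGACGTCA or its core TGACG, on either strand.
Zfp36: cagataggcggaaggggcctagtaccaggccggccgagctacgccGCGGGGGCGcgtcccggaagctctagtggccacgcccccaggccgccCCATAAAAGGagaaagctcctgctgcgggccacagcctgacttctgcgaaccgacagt
Nr4a1: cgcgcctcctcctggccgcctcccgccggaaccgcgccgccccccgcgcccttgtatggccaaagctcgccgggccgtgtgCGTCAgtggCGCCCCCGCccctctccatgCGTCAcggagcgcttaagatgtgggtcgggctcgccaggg
Fos: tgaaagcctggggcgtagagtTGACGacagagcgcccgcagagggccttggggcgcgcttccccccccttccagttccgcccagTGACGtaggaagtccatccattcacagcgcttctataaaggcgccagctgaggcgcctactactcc
Dusp1: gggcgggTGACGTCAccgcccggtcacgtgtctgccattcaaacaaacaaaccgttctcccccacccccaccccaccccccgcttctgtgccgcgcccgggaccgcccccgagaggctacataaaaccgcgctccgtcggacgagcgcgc

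Within the printed bases, Zfp36 has a CArG box from -58 to -49 and a GCGNGGGCG match from -105 to -97, counted back from the base before the start at -1. Nr4a1 has a GCGNGGGCG match from -60 to -52 and TGACG matches on the opposite strand from -69 to -65 and from -40 to -36. Fos has TGACG from -66 to -62 and from -129 to -125, and Dusp1 has the full TGACGTCA from -143 to -136. Of the 10 member genes 8 were matched in the RefSeq promoter table, and their 250 upstream bases were searched on both strands. The promoters of 1 chromosome were left out of the search, so a member gene lying there could not be matched. Whether this accounts for each unmatched member gene was not checked. Motifs of the unmatched member genes are not known here. TGACG was found in 6 of 8 (Fos, Junb, Atf3, Nr4a1, Btg2 and Dusp1), against 17.8% of the 32851 promoters kept. TGACGTCA, which contains TGACG, was in 2 of 8 (Btg2 and Dusp1) against 1.55%. GCGNGGGCG was in 3 of 8 (Btg2, Nr4a1 and Zfp36) against 4.7%, and the CArG box in 1 of 8 (Zfp36) against 1.47%. Sites further upstream than these 250 bases were not searched, so a gene without a match here may still hold the motif there. The AP-1 letters TGANTCA, which Fos and Jun dimers bind, were in 0 of 8 against 6.75%. The core letters of the hypoxia response element were also searched: GCGTG was in 6 of 8 against 28.2%, and ACGTG in 1 of 8 (Dusp1) against 16.6%. These cores can overlap TGACG. Most of these motifs hold the letters CG, and the promoters set beside the members were not matched to them in base composition. Members with and without a rise both held such letters, and a match describes the sequence only.

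Zfp36 binds AU-rich elements of cytokine messenger RNAs. Its probe set 1452519_a_at read 6.94, 7.19, 7.76 and 8.31 on CoCl2 replicates 1 to 4, against 6.80, 6.43, 6.10 and 6.22 on control replicates 1 to 4 (log2 expression, as are all levels below). Every CoCl2 array lay above every control array, but the lowest CoCl2 and the highest control value were close. The means were 7.55 ± 0.61 with CoCl2 and 6.39 ± 0.31 in controls (SD, n = 4 each), a log2 difference of 1.16 (SE 0.30; adjusted p = 0.0134 by limma). After quantile normalization the log2 difference was 0.84 and the limma adjusted p 0.0556. Zfp36 passed with each of the 8 arrays left out in turn, at adjusted p up to 0.0404 by limma. Over 19 limma alternatives it kept its direction, with adjusted p between 2.27e-06 and 0.191.

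Nr4a1 (Nur77) is rapidly induced by antigen receptor signals in lymphocytes. Probe set 1416505_at stood at 3.56, 3.80, 3.77 and 3.65 on CoCl2 replicates 1 to 4, against 2.73, 3.48, 2.88 and 2.95 on control replicates 1 to 4. The groups did not overlap, and control replicate 2 came nearest to the CoCl2 arrays. Nr4a1 averaged 3.70 ± 0.11 with CoCl2 and 3.01 ± 0.33 in controls (SD, n = 4 each). Control values of 2.73, 2.88 and 2.95 lay near the medians of the control arrays, 2.84 to 2.89, where a GCRMA value says little about the amount of RNA, so no fold is given. Its log2 difference was 0.69 (SE 0.18; adjusted p = 0.0139 by limma). Of the 2 members that passed it was the one with the tighter CoCl2 group, and replicates 3 and 4 did not stand out. Without overlap and higher with CoCl2 were Zfp36 and Nr4a1 alone among the 11 members, and 27.3% of all tested probe sets. Against a 1.5-fold minimum in limma's treat test neither passed, with adjusted p of 0.191 for Zfp36 and 0.739 for Nr4a1. After each array was centred on its median, the groups of both genes overlapped, although both still passed with log2 differences of 1.03 for Zfp36 and 0.55 for Nr4a1.

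**Figure D1:**
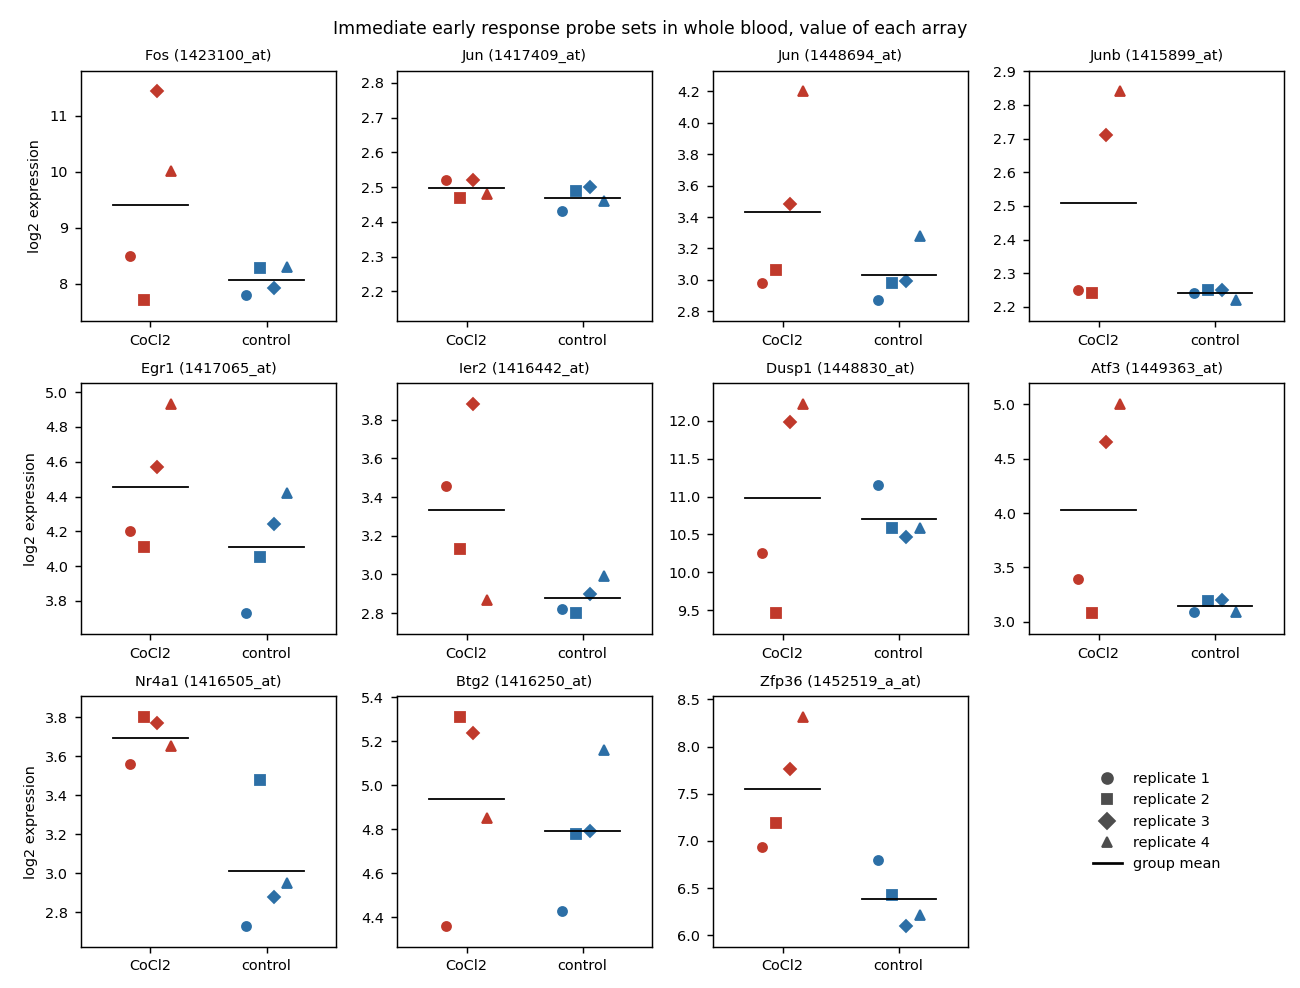
Log2 expression (vertical axis, scaled separately in each panel) of the 11 probe sets on each array, CoCl2 in red and control in blue; symbols give the replicate number and lines the group means. Fos, Jun (1448694_at), Junb, Egr1, Dusp1, Atf3 and Zfp36 have CoCl2 replicates 3 and 4 at the top, whereas the 4 CoCl2 values of Nr4a1 lie between 3.56 and 3.80.

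Fos, which pairs with Jun proteins to form the transcription factor AP-1, had the largest mean difference of the members and did not pass. Probe set 1423100_at read 8.49, 7.71, 11.43 and 10.01 on CoCl2 replicates 1 to 4, against 7.80, 8.28, 7.92 and 8.31 on control replicates 1 to 4. The controls lay within 0.51 of each other, while the CoCl2 arrays spanned 3.72, with replicate 2 below all controls. Fos averaged 9.41 ± 1.65 with CoCl2 and 8.07 ± 0.26 in controls (SD, n = 4 each), a log2 difference of 1.34 (SE 0.69, 95% interval -0.22 to 2.90, adjusted p = 0.14 by limma). The call turned on single arrays. Without CoCl2 replicate 2 the log2 difference of Fos was 1.90 (adjusted p = 0.0368 by limma), and without CoCl2 replicate 3 it was 0.67 (adjusted p = 0.299 by limma). Over 19 limma alternatives the adjusted p of Fos ranged from 0.000464 to 0.495.

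Atf3 is a basic leucine zipper factor induced by cellular stress. Probe set 1449363_at stood at 3.39, 3.08, 4.65 and 5.0 on CoCl2 replicates 1 to 4, against 3.09, 3.19, 3.20 and 3.09 on control replicates 1 to 4. The controls were nearly equal, and of the CoCl2 arrays only replicate 2 was not above them. Its log2 difference was 0.89 (SE 0.40, 95% interval -0.02 to 1.79, adjusted p = 0.0971 by limma). Without CoCl2 replicate 2 it came to 1.20 (adjusted p = 0.0295 by limma), and without CoCl2 replicate 4 to 0.56 (adjusted p = 0.209 by limma). The adjusted p of Atf3 lay between 3.02e-05 and 0.643 over 18 limma alternatives.

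The Jun family had 3 probe sets. Junb, an AP-1 partner of Fos, read 2.25, 2.24, 2.71 and 2.84 on CoCl2 replicates 1 to 4, against 2.24, 2.25, 2.25 and 2.22 on control replicates 1 to 4 (1415899_at). Replicates 1 and 2 could not be told from the controls, which lay near the lower end of the scale. The log2 difference of Junb was 0.27 (SE 0.15; adjusted p = 0.237 by limma in the fit without filter). Neither Jun probe set passed. Probe set 1448694_at stood at 2.98, 3.06, 3.48 and 4.20 on CoCl2 replicates 1 to 4, against 2.87, 2.98, 2.99 and 3.28 on control replicates 1 to 4, and its log2 difference was 0.40 (SE 0.26; adjusted p = 0.236 by limma). Without CoCl2 replicate 4 it was 0.14. Probe set 1417409_at lay between 2.47 and 2.52 with CoCl2 and between 2.43 and 2.50 in controls, a log2 difference of 0.02 (SE 0.03; adjusted p = 0.506 by limma in the fit without filter). All 8 values of 1417409_at were under the filter level, at the low end of the scale, and carry little information on Jun.

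Egr1 is a zinc finger factor that is switched on through serum response factor. On CoCl2 replicates 1 to 4 its probe set 1417065_at read 4.20, 4.11, 4.57 and 4.93, against 3.73, 4.05, 4.24 and 4.42 on control replicates 1 to 4. Replicates 3 and 4 of the CoCl2 group were above every control, and replicates 1 and 2 lay inside the control range. The log2 difference was 0.34 (SE 0.22, 95% interval -0.16 to 0.85, adjusted p = 0.231 by limma). It was 0.18 without CoCl2 replicate 4 and 0.22 without control replicate 1.

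Ier2, an early response gene induced by serum, held the only member value whose decimal point could be restored in more than 1 way. Probe set 1416442_at read 3.46, 3.13, 3.88 and 2.87 on CoCl2 replicates 1 to 4, against 2.82, 2.80, 2.90 and 2.99 on control replicates 1 to 4. The rule for such cells took 2.87 for CoCl2 replicate 4, and the other reading of its digits is 3.18, which would put every CoCl2 array above every control array. With 2.87 the log2 difference was 0.46 (SE 0.21, 95% interval -0.02 to 0.94, adjusted p = 0.103 by limma). With 3.18 it was 0.54 (adjusted p = 0.0372 by limma), and with that cell set to missing 0.62 (adjusted p = 0.0327 by limma). With 2.87 kept it also passed under array weights (0.60; adjusted p = 0.0492 by limma), and without the filter its adjusted p was 0.168 by limma. The control mean of Ier2, 2.88, was under the filter level of 2.90, so Ier2 was tested only through its CoCl2 values. The call for Ier2 was therefore not settled by these values. Over 18 limma alternatives its adjusted p lay between 3.8e-06 and 1.

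Dusp1, the phosphatase that switches off MAP kinases, was split most clearly. Probe set 1448830_at stood at 10.25, 9.46, 11.99 and 12.22 on CoCl2 replicates 1 to 4, against 11.16, 10.59, 10.46 and 10.58 on control replicates 1 to 4. Replicates 3 and 4 lay above every control and replicates 1 and 2 below every control, so the group means hardly differed. They were 10.98 ± 1.34 with CoCl2 and 10.70 ± 0.31 in controls (SD, n = 4 each), with a log2 difference of 0.28 (SE 0.57, 95% interval -1.01 to 1.58, adjusted p = 0.705 by limma). Its sign turned without CoCl2 replicate 3, to -0.05, and without CoCl2 replicate 4, to -0.13.

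Btg2 slows cell division and takes part in messenger RNA deadenylation. Its probe set 1416250_at read 4.36, 5.31, 5.24 and 4.85 on CoCl2 replicates 1 to 4, against 4.43, 4.78, 4.79 and 5.16 on control replicates 1 to 4. The groups overlapped over most of their range, and CoCl2 replicate 1 was the lowest of all arrays. The log2 difference was 0.15 (SE 0.24, 95% interval -0.40 to 0.70, adjusted p = 0.633 by limma), and -0.06 after quantile normalization. With 1 array left out it ranged from 0.03 (without CoCl2 replicate 2 or control replicate 1) to 0.34 (without CoCl2 replicate 1).

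The members differed from one another in how the CoCl2 arrays were ordered. Replicates 3 and 4 were the highest CoCl2 arrays for 7 of 11 members, namely Fos, Jun (1448694_at), Junb, Egr1, Dusp1, Atf3 and Zfp36. Over all tested probe sets, which leave out Junb and Jun (1417409_at), the same pair was highest in 17.7%. Replicates 1 and 2 were highest in 23.9%, the most frequent of the 6 pairs and the order of 0 members. The remaining pairs were highest in 10.9% to 16.7% of tested probe sets. Over all tested probe sets, replicates 3 and 4 were thus highest about as often as replicates 2 and 3 (16.7%), and the reverse order was more frequent. These shares count the order only and not the size of any gap between the arrays. Fos exceeded the control mean by 3.36 and 1.94 on replicates 3 and 4, and by 0.42 and -0.36 on replicates 1 and 2. For Zfp36 the order held too, but all 4 arrays were above the control mean, by 0.55 and 0.81 on replicates 1 and 2 and by 1.37 and 1.93 on replicates 3 and 4. This order was noticed in the values themselves and is given as a description, since the members respond to common signals and are not replicates of each other.

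**Figure D2:**
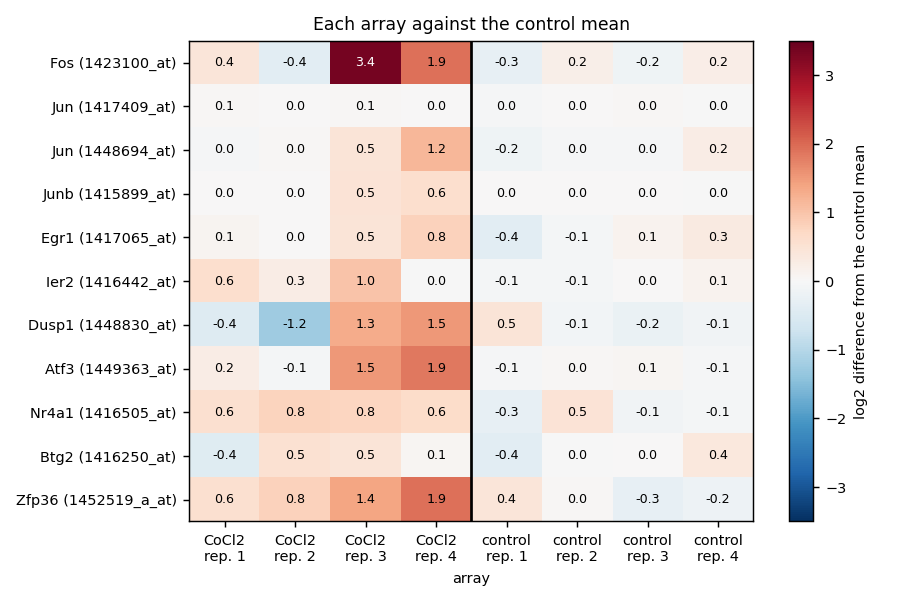
Difference of each array from the mean of the controls (colour and printed value, log2) for the 11 probe sets (rows); the 4 CoCl2 arrays stand to the left of the line and the 4 control arrays to the right. The columns of CoCl2 replicates 3 and 4 hold the strongest reds, with 3.36 for Fos on replicate 3, and Dusp1 is blue on replicates 1 and 2.

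The spread between arrays was correspondingly wide in the CoCl2 group. The SD with CoCl2 exceeded that of the controls for 9 of 11 members, against 44.4% of all tested probe sets. It was at least 2 times as large for 6 of 11, against 20.7%. Of the untested members, Junb counts in both numbers and Jun (1417409_at) in neither. The median ratio of the CoCl2 SD to the control SD was 3.18 for the members and 0.868 for all tested probe sets. Fos had a ratio of 6.45, Dusp1 4.29 and Atf3 15.3. Zfp36 had a ratio of 1.99, just under 2. Nr4a1 went the other way with 0.343. That of Junb, 26.5, rests on controls that hardly varied at the low end of the scale. Controls were also low for Atf3 (3.09 to 3.20), Ier2 (ratio 5.04, controls 2.80 to 2.99) and Nr4a1 (2.73 to 3.48). The same held for Jun 1448694_at (controls 2.87 to 3.28), whose ratio is the members' median of 3.18. Ratios from such low controls carry less information.

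**Figure D3:**
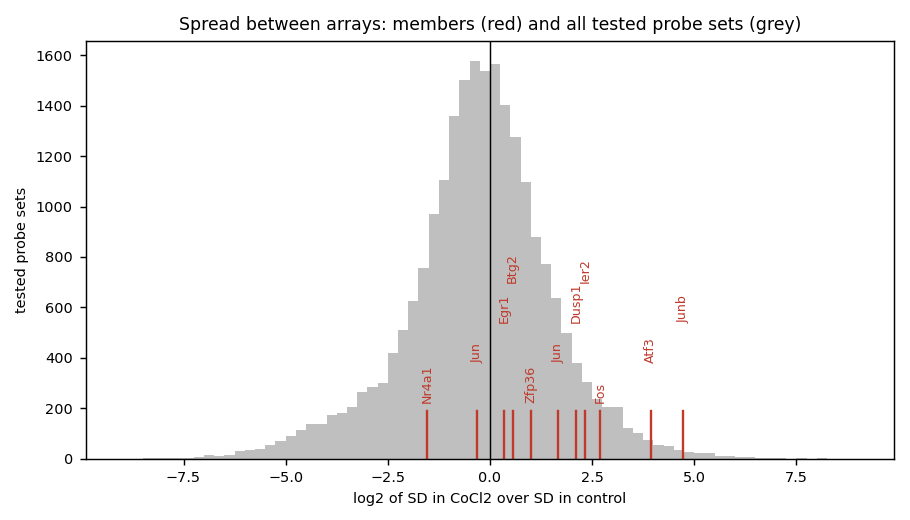
Number of tested probe sets (grey bars) by the log2 ratio of the SD between CoCl2 arrays to the SD between control arrays, with the 11 member probe sets as red lines (2 of them, Junb and 1 of Jun, were not tested). Nr4a1 and 1 Jun probe set lie left of 0, and Junb and Atf3 lie in the right tail.

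Technical readings of the CoCl2 arrays are set beside this pattern. On principal component 2 of the tested probe sets, which held 8.08% of the variance, CoCl2 replicates 1 to 4 scored 37.77, 28.78, -12.80 and -52.04, and the controls lay between -15.67 and 6.16 (the sign is arbitrary). On this minor component replicates 3 and 4 thus stood on one side of replicates 1 and 2. Replicate 3 lay inside the control range, and replicates 1, 2 and 4 lay outside it. The 3′ minus 5′ difference of the beta-actin control probe sets, which widens as RNA breaks down, was 1.79, 1.61, 1.63 and 1.70 on CoCl2 replicates 1 to 4, against 1.75 to 1.99 in controls. That of Gapdh was 2.02, 1.55, 1.73 and 1.72, against 1.38 to 1.62 in controls. On neither measure were CoCl2 replicates 3 and 4 the extremes of their group. The part of RNA quality, cell makeup or blood handling in the order of the arrays was not tested.

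Between the groups, the bacterial control RNAs bioB and bioC, added to each sample before hybridisation, averaged 11.11 ± 0.14 on CoCl2 arrays and 12.95 ± 0.22 on control arrays (SD, n = 4 each). With arrays centred on them, the median difference of all tested probe sets was 2.02 and all 9 tested members passed as higher, as did 91.2% of all tested probe sets. Of the 9 tested members 8 lay above that median, the same number as on the deposited scale, after quantile normalization and after median centring. Btg2 was the one below it on each of these scales, with 0.15 against 0.19 on the deposited scale. No batch is labelled, but the ID numbers in the titles of CoCl2 and control samples do not overlap, and a batch and the treatment cannot be told apart.

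The authors' deposited table, which holds a SAM comparison of the groups, lists 10 of the 11 probe sets, all but 1417409_at. Of these, 8 have a q-value under 5% and a positive difference in the authors' deposited table, against 47.6% of all its probe sets, while 0 members and 21.4% of all have a negative one. The 2 others are Dusp1 and Btg2, each with a q-value of 7.57% in the authors' deposited table. For Nr4a1 the authors' deposited table gives a log2 difference of 1.23, against 0.69 from the restored values, and for Ier2 0.99 against 0.46. For Fos the authors' deposited table gives 1.07 against 1.34, and for Zfp36 1.08 against 1.16. By difference Nr4a1 came first in the authors' deposited table and Fos in the restored values. By the fold-change column of the authors' deposited table Fos was first there too, at 2.89, above Atf3 at 2.64 and Nr4a1 at 2.24. Which arrays and values entered that comparison is not stated.

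**Figure D4:**
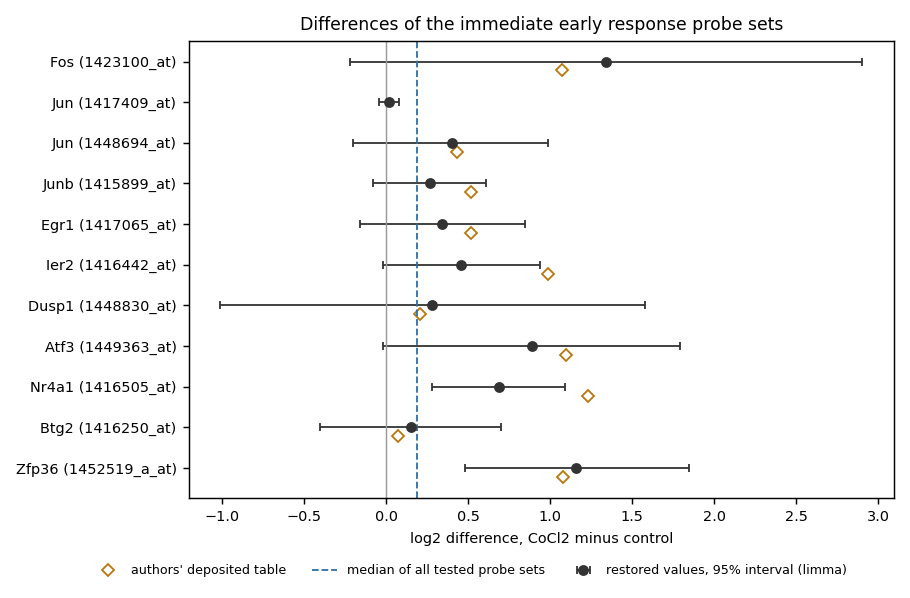
Log2 difference, CoCl2 minus control, for each probe set (rows): filled circles with 95% intervals from limma on the restored values, open diamonds from the authors' deposited table, a solid line at 0 and a dashed line at 0.19, the median of all tested probe sets. The intervals of Nr4a1 (0.28 to 1.09) and Zfp36 (0.48 to 1.85) lie above 0, and that of Dusp1 is among the widest.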

How the data were processed

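Per the labels' protocols, RNA from 100 ul of whole blood was amplified in 1 cycle and each sample had 1 array. The submitters' processing notes name GCRMA and Partek without versions. Values in the main deposited table are a score for each probe set on each array, with 6 significant digits whose decimal point was lost. The point was restored from the digits without use of the groups. Of 360808 cells, 353373 were read with 1 digit before the point, 7013 with 2, 409 as spreadsheet day numbers and 13 as they stood. A further choice was needed in 1323 cells (0.367%), for which the reading closest to that probe set's unambiguous values was used. On simulated damage 96.1% of such cells came back within 0.005. The damage was put on values already restored, by the same rules that the restoration inverts. This rate therefore does not measure how often the deposited cells were read correctly. That the values are log2 is inferred, as no header in the deposited files says so. The deposited comparison table gives, per the file headers, a SAM score, a numerator (read here as a log2 difference), its error, a fold change as a ratio and a q-value in percent.

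Controls (64 AFFX probe sets) were left out, and the upper 50% of the rest by mean over 8 arrays was tested with limma 3.58.1 in R 4.3.3 (lmFit, eBayes, two-sided, CoCl2 minus control, Benjamini-Hochberg over 22519 probe sets, threshold 0.05). The same test was run on simulated arrays of these 22519 probe sets, with CoCl2 minus control changes in 200. There it recovered 36% of log2 rises of 1 and 90% of rises of 2. On the measured arrays limma called 45.1%, a far larger share than was changed in the simulation. The Benjamini-Hochberg adjustment depends on that share, so these rates do not tell how often such rises were found here. Precision is limited by how few arrays there are, the median SE of a log2 difference being 0.21. Samples were grouped by their titles. Alternatives were other filters, scalings, weights, priors, a replicate block, a minimum change, each array left out, ambiguous cells set to missing, and the deposited comparison. Same-numbered arrays of the groups did not deviate together (correlations of deviations from -0.04 to 0.02), so the numbers were not used as pairs. Promoter sequences are from RefSeq (GRCm38.p6). The members and lists were chosen with earlier results of these data known; all 11 members are named, which was the rule for named genes. The planned lists of related genes and of cell type markers were not analysed here, since the files pair no other probe sets with genes.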

Additional observations from a re-analysis of the deposited data

How the results depend on the processing

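The 2 members past the threshold became 1 with the upper 25% of probe sets (Nr4a1 was not in it) and 1 after quantile normalization, 9 with arrays centred on bioB and bioC, 0 in the treat test, which is stricter by construction, and 8 in the authors' deposited table. They numbered 2 to 4 with 1 array left out at a time, the 4 without CoCl2 replicate 2, 3 with array weights, and 2 with a replicate block, where Zfp36 had a limma adjusted p of 0.0351 and Nr4a1 of 0.0212; the block changed no other call. Members lower with CoCl2 numbered 0 in each of these settings. Members without overlap were 1 with the upper 25%, where Nr4a1 was not tested, and 1 after quantile normalization. They were 0 after median centring, 9 centred on bioB and bioC, and 2 to 4 with 1 array left out. The share of all tested probe sets without overlap was taken on the deposited scale only, so these counts have no share beside them. Over all tested probe sets, 6442 were higher and 3720 lower. Those higher numbered 4537 with the upper 25%, 5084 after quantile normalization, 7163 with array weights and 5054 to 6426 with 1 array left out. Centring on bioB and bioC gave 20541 higher and 508 lower, the treat test 1637 higher and 1447 lower, the upper 25% gave 1607 lower, and 11832 were higher in the authors' deposited table. Reversed were Btg2 (-0.06 after quantile normalization) and Dusp1, whose log2 difference ranged from -0.13 to 0.79 with 1 array left out. Apart from where the setting itself tests fewer probe sets, arrays or a larger change, the cause was not tested. The other reading of the Ier2 value was tried after seeing the data. At 4 arrays a group, differences such as that of Fos, with an SE of 0.69, could not be resolved.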
